A study of Homo sapiens with 8 samples.

Results

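Histone genes were examined in RNA-seq libraries of HEK293T, an established human embryonic kidney cell line. The genes were taken by name, as protein-coding rows whose symbols follow the naming of H1, H2A, H2B, H3 and H4 genes and of their H2AX, H2AZ and H3.3 variants, which gave 43 of 19770 genes. Of these, 36 are replication-dependent genes and 7 are variant genes, among them *H1-10*, *H2AX*, *H2AZ1*, *H2AZ2*, *H3-3A* and *H3-3B*. The name pattern matched 7 further rows that are not protein coding. The study tested whether CRISPR-DREAM, a programmable transcriptional activator, alters genes other than its target. There were 4 groups of 2 libraries, all collected 72 h after transient transfection and all given 4 pooled gRNAs against *HBG1* and *HBG2*. The control received dCas9 + MCP-mCherry, in which mCherry carries no activation domain. CRISPR-DREAM was dCas9 + MCP-MSN, where MCP is the coat protein that binds MS2 hairpins in the gRNA and MSN joins activation domains of human transcription factors. The SAM system was dCas9-VP64 + MCP-p65-HSF1. In dCas9-VPR the effector is fused to dCas9, and that group received gRNAs not labelled as MS2-modified. The labels do not say whether the 2 libraries of a group came from separate cultures, so p-values measure the spread between these libraries, which may be technical. In such bulk samples fewer cells of a state and less RNA per cell cannot be told apart.

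Histones are the proteins around which DNA is wound, and cells need large amounts of the core histones H2A, H2B, H3 and H4 and the linker histone H1 when they copy their DNA. Replication-dependent histone genes lie in clusters, mostly lack introns and are transcribed in S phase, and their main mRNA ends in a conserved stem-loop instead of a poly(A) tail. The stem-loop is bound by SLBP, which acts in processing, export and translation of the mRNA. Variant histone genes lie alone, usually contain introns or make poly(A) mRNA, and are expressed outside S phase as well. Some replication-dependent genes also make longer poly(A) transcripts that read through the stem-loop.

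The stem-loops of these genes are shown because they separate the 2 classes by a feature that the gene names do not use. They were read from hg38 in the 150 bases after the stop codon on the gene's strand, as GG, any 2 bases, CTT, any base, T, any base, AG, any 2 bases and CC. The pattern was widened by 1 open base after the sequence of *H3C6* had been seen. It was found for all 36 replication-dependent genes and for 1 of 7 variants, *H2AX*, but in only 38 of 14810 protein-coding genes (0.2566%), and the remaining gene was *TIPARP*. It lay 23 to 68 bases after the stop codon. The 37 genes held 8 distinct sequences, which are printed with the 4 loop bases in capitals, and the most common one was shared by 19 genes.
19 genes including H1-2, H2AC6, H2BC15 and H3C10: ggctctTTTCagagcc
6 genes including H2BC11, H2BC12, H2BC4 and H2BC5: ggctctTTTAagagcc
4 genes including H4C8 and H4C11: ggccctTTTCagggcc
4 genes including H4C14 and H4C15: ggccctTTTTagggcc
H2AX: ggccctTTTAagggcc
H3C6: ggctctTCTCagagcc
H2AC11: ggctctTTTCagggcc
H2AC20: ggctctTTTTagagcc
All 8 sequences can pair over 6 bases on each side of the loop, with G-T pairs allowed. The sequence of *H3C6*, a gene whose values with the SAM system follow, was found in none of the other 36.

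Promoters are shown for the 3 genes that passed the study's threshold in a comparison with the control. The 250 bases before each RefSeq start (GRCh38.p14) were searched on both strands for CCAAT, for TATAAA and for ATTTGCAT, the octamer found in many H2B promoters. Every match is in capitals, and overlapping matches run together.
H3C6, chr6:26224885-26225134, plus strand: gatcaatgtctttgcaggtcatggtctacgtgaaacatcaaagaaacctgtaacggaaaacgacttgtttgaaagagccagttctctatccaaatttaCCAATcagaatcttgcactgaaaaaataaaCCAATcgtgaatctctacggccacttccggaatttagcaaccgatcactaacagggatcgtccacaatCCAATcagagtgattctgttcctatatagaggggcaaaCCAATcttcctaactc
H4C8, chr6:26285535-26285784, minus strand: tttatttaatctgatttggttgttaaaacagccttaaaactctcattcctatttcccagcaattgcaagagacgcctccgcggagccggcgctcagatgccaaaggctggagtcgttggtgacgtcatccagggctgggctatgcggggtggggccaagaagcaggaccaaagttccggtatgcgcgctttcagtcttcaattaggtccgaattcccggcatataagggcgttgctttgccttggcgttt
H2BC11, chr6:27132796-27133045, minus strand: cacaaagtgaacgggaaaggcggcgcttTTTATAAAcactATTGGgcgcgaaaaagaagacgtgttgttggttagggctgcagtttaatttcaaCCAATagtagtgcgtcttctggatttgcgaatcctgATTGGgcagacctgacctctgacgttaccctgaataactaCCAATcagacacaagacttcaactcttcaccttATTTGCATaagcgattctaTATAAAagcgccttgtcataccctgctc
The printed window of *H3C6* had 4 CCAAT matches and neither of the others, and that of *H4C8* had none of the 3 motifs. RefSeq gives *H3C6* a further start, whose window (chr6:26223928-26224177) held 3 CCAAT and 1 TATAAA match. *H2BC11* had 4 CCAAT, 3 TATAAA and 1 octamer match. A gene counts as holding a motif if the window of any of its RefSeq starts does. Of 35 replication-dependent genes with a RefSeq promoter, 29 held CCAAT, 23 held TATAAA and 13 held the octamer, against 41.3%, 8.80% and 1.97% of 11916 genes. These 13 were all among the 18 replication-dependent H2A and H2B genes, and 0 of 12 replication-dependent H3 and H4 genes held the octamer. In 4 head-to-head pairs of H2A and H2B genes the windows share 235 to 247 bases. A match there, the octamer included, counts for both partners, so these genes are not separate sequences. Of the variants with a promoter, 5 of 6 held CCAAT, 4 of 6 TATAAA and 1 of 6 the octamer (*H3-3B*). These matches describe letters in the windows and were not tested as binding sites.

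Values are CPM as the authors deposited them, a gene's reads scaled to a library total that is the same in all samples, at an estimated 28.5 to 35.2 M reads per library, so that 3 reads stand for 0.0853 to 0.105 CPM. The labels give polyA RNA as the molecule, whereas the methods name a total RNA library kit. Of the HEK293T markers examined, *VIM*, *CDH2*, *NEFM* and *NEFL* were at 13.9 CPM or more in every library, and *PAX2* and *LHX1* were between 0.798 and 2.25 CPM. Of 4 markers of other cell types, *KRT5* was at or below 0.0964 CPM, and *PECAM1* was at 0.0320 and 0.131 CPM in control libraries and at 1.03 and 1.17 CPM in SAM libraries, the only libraries in which it reached 1 CPM. The 4 markers together were at 13.02 and 13.9 CPM in control libraries, 14.3 and 13.98 in CRISPR-DREAM, 19.6 and 17.7 in SAM and 16.9 and 19.5 in dCas9-VPR libraries, most of it *COL1A1*. *COL1A1* rose with each activator (log2 fold changes of 0.37, 0.67 and 0.67, limma adjusted p = 0.0331, 0.00108 and 0.00432), and *COL3A1* fell by 0.93 with CRISPR-DREAM (limma adjusted p = 0.00289). The *COL1A1* call with CRISPR-DREAM was lost with scaling of the libraries by median of ratios. The part of these markers in the histone results was not tested.

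The variants made up most of the histone signal as measured. The share of replication-dependent genes depends on whether RNA without a poly(A) tail was kept, on which labels and methods differ, so levels of the 2 classes cannot be compared as amounts of mRNA. Their summed level was 3057 and 3016 CPM in control libraries, 2655 and 2597 in CRISPR-DREAM, 2819 and 2767 in SAM and 3255 and 3143 in dCas9-VPR libraries. The 36 replication-dependent genes together reached 108 and 130.3 CPM in control libraries, 106 and 129 in CRISPR-DREAM, 141 and 169.6 in SAM and 106 and 124 in dCas9-VPR libraries CPM, which was 3.14% to 5.78% of histone CPM in a library. Per kilobase of exon (Gencode 44 models), *H2AZ1* was at 342 and 353 CPM in the 2 control libraries, *H3-3A* at 178 and 167, *H1-10* at 145 and 138, *H3-3B* at 120.1 and 115, *H2AX* at 94.7 and 90.0 and *H2AZ2* at 23.5 and 23.0. The 2 control libraries of neighbours in this order did not overlap. The order holds for this exon length, which joins all transcripts of a gene, and can change with another. For *H3-3B* the length is 6134 bases, against 2705 in the canonical transcript, and for *H1-10* it is 1516 in both. *H2BC12* was the highest replication-dependent gene on this scale, at 59.4 and 75.4 CPM per kilobase, above *H2AZ2*. Of its 75-base stretches, 38.95% are shared with other genes, *H2BC17* and *H2BC11* among them, so its level is uncertain. *H1-2* followed at 15.9 and 20.3 and *H2AC19* at 17.9 and 16.5, which overlap each other.

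**Figure D1:**
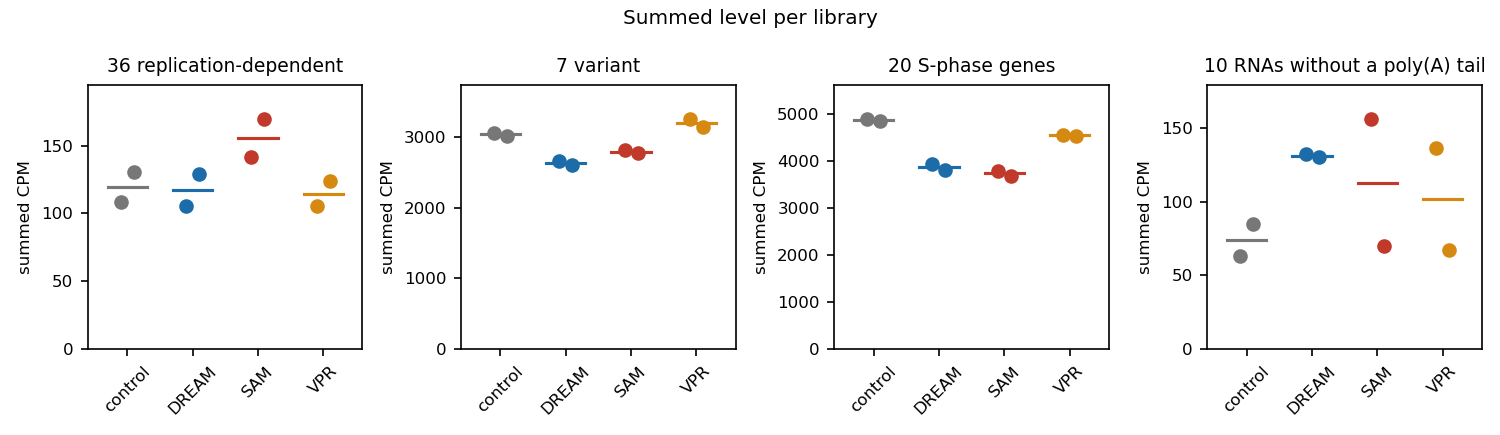
Summed CPM per library (y axis from 0, 1 panel per gene list with its own scale) for the 36 replication-dependent histone genes, the 7 variants, 20 S-phase genes and 10 RNAs without a poly(A) tail; points are the 2 libraries of each group and lines their mean. Both SAM libraries lie above every other library for the replication-dependent genes (141 and 170 CPM), and both the variant and the S-phase sums are lowest with CRISPR-DREAM and the SAM system.

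The sum of replication-dependent genes was higher in both SAM libraries than in any other library, and its log2 ratio to the control was 0.38 with the SAM system, -0.02 with CRISPR-DREAM and -0.06 with dCas9-VPR. Leaving out 1 library, this ratio was 0.24 to 0.52 for SAM, -0.17 to 0.12 for CRISPR-DREAM and -0.19 to 0.08 for dCas9-VPR, and without *H2BC12*, the highest gene, it stood at 0.40, -0.18 and -0.07. Replicate 2 was above replicate 1 in every group, and the control, CRISPR-DREAM and dCas9-VPR ranges overlap. The log2 ratio of the variant sum was -0.21 with CRISPR-DREAM, -0.12 for SAM and 0.08 for dCas9-VPR, and these groups do not overlap the control. The median of all 15122 genes tested stood at 0.06, 0.16 and 0.06 on the log2 scale in the 3 comparisons. Scaling by median of ratios takes these medians to -0.01, -0.01 and 0.01, and the sum ratios with the SAM system to 0.20 for the replication-dependent genes and -0.30 for the variants.

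Of the 43 genes, 26 passed the filter of 1 CPM in at least 2 libraries, all 7 variants and 19 of 36 replication-dependent genes. The study's threshold was a change of more than 2-fold together with a false discovery rate (FDR, the adjusted p of limma) below 0.05. With CRISPR-DREAM 1 of 26 passed it (*H2BC11*, lower), against 2.55% of all genes tested, 2.04% higher and 0.503% lower. With the SAM system 2 of 26 were called (*H3C6* and *H4C8*, both higher), against 4.34% of all genes, 3.89% higher and 0.456% lower. With dCas9-VPR the limma fit called 0 of 26, against 1.10% of all genes (0.463% higher and 0.641% lower). In that fit 8 of 26 had an unadjusted p below 0.05, of which 0 were past a fold change of 2. The share of all genes below that unadjusted p was not counted, so the 8 are not a result about histone genes. At an FDR below 0.05 alone, 6 of 26 were called with CRISPR-DREAM, 10 of 26 for SAM and 5 of 26 for dCas9-VPR, against 28.0%, 44.6% and 17.6% of all genes. These shares of histone genes, without further scaling of the libraries, were near or below those of all genes. With median-of-ratios scaling 16 of 26 were below the FDR with the SAM system, against 39.2% of all genes. With CRISPR-DREAM and dCas9-VPR the shares stayed near those of all genes under this scaling. The number of calls with the SAM system thus depends on the scaling, and it is not taken as a result about histone genes. With CRISPR-DREAM the 1 call past the threshold became 2 without control replicate 1 (*H2AC18* added), 0 without control replicate 2, 1 without CRISPR-DREAM replicate 1 (*H2AC18* in place of *H2BC11*) and 4 without CRISPR-DREAM replicate 2 (*H2BC11*, *H2AC19* and *H3C15* lower and *H3C14* higher), when 11 were below the FDR of 0.05. With the SAM system the 2 calls became 3 without control replicate 1 (*H2AC18* lower), without control replicate 2 or without SAM replicate 1 (*H2AC6* higher in both).

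**Figure D2:**
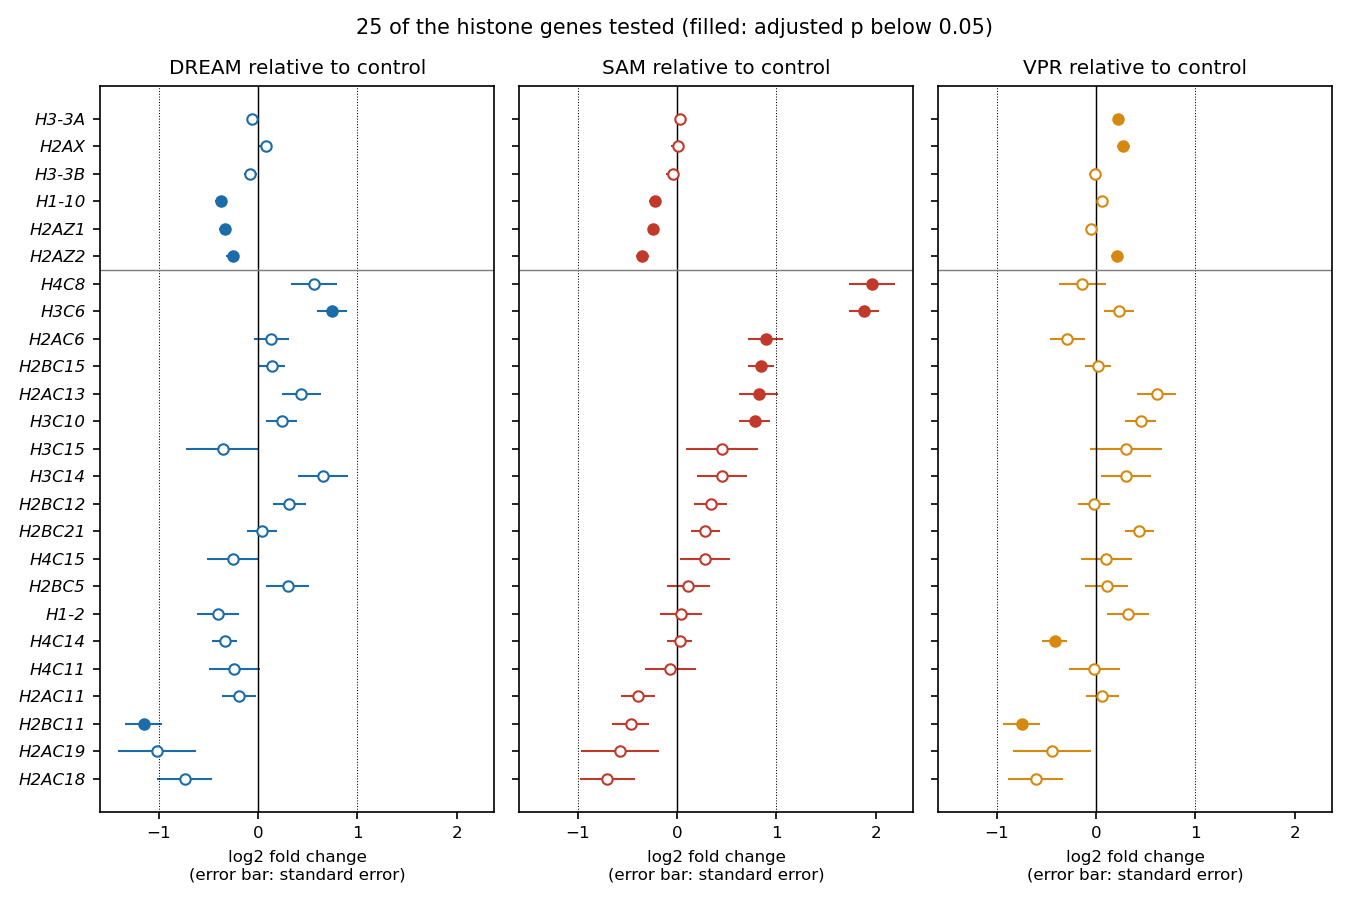
Log2 fold change relative to the control (x axis, log2(CPM + 0.5) scale, error bars are standard errors from limma) of 25 of the 26 histone genes tested, variants above the grey line and replication-dependent genes below it; filled points have an adjusted p below 0.05 and dotted lines mark a fold change of 2. *H3C6* and *H4C8* lie beyond 1 with the SAM system, *H2BC11* lies beyond -1 with CRISPR-DREAM, and the called variants lie left of 0 with CRISPR-DREAM and the SAM system and right of 0 with dCas9-VPR.

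The variants that passed the test moved in 1 direction in each comparison, by less than a fold change of 2. With CRISPR-DREAM 4 of 7 were lower and 0 higher, against 9.25% of all genes lower. With the SAM system the same 4, *H1-10*, *H2AZ1* and *H2AZ2* among them, were lower and 0 higher, against 8.89% of all genes. With dCas9-VPR 3 of 7 were higher (*H2AX*, *H2AZ2* and *H3-3A*) and 0 lower, against 11.0% of all genes higher. The comparisons share the control libraries. The median variant stood at -0.26, -0.22 and 0.09, beside medians over all genes of 0.06, 0.16 and 0.06. With median-of-ratios scaling all 7 variants were called lower with the SAM system, including *H2AX* and *H3-3A*, which stood at 0.01 and 0.03 without it, against 21.2% of all genes.

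*H1-10* encodes a linker histone made throughout the cell cycle. It was at 221 and 209 CPM in control libraries, 165 and 167 in CRISPR-DREAM, 196 and 174 in SAM and 226 and 221 in dCas9-VPR libraries. CRISPR-DREAM and SAM libraries were all below the control. Its log2 fold change was -0.37 (SE 0.06, adjusted p of limma = 0.00155) with CRISPR-DREAM and -0.22 (SE 0.06, adjusted p of limma = 0.0144) with the SAM system. The SAM call was lost without control replicate 1 (-0.18) or SAM replicate 2 (-0.14). On the opposite strand, *H1-10* overlaps the exons of *H1-10-AS1*, *H2AZ1* those of *H2AZ1-DT*, *H3-3A* those of *H3-3A-DT* and *H3-3B* those of *UNK*. Whether counting used strand is not stated in the sources used here.

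*H2AZ1* and *H2AZ2* encode H2A.Z, which is placed at promoters and regulatory elements by remodelling complexes. *H2AZ1* was at 776 and 801 CPM in control libraries, 604 and 644 in CRISPR-DREAM, 644 and 686 in SAM and 758 and 763 in dCas9-VPR libraries. Both CRISPR-DREAM and both SAM libraries were below the control, and dCas9-VPR lay just under it. The log2 fold change was -0.34 (SE 0.05, adjusted p of limma = 0.00103) with CRISPR-DREAM and -0.25 (SE 0.05, adjusted p of limma = 0.00350) with the SAM system. *H2AZ2* was at 164 and 161 CPM in control libraries, 142 and 131 in CRISPR-DREAM, 132 and 124 in SAM and 196 and 182 in dCas9-VPR libraries. It was lower with CRISPR-DREAM and the SAM system and higher with dCas9-VPR, with no overlap with the control. Its log2 fold changes were -0.26 (SE 0.06, adjusted p of limma = 0.0118) with CRISPR-DREAM, -0.35 (SE 0.06, adjusted p of limma = 0.00150) with the SAM system and 0.21 (SE 0.06, adjusted p of limma = 0.0395) with dCas9-VPR. Median-of-ratios scaling ends the last call (0.16, limma adjusted p = 0.0698), and so does leaving out any 1 of the 4 libraries (0.16 to 0.27). The call with CRISPR-DREAM was lost without either control library (-0.24 and -0.27).

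**Figure D3:**
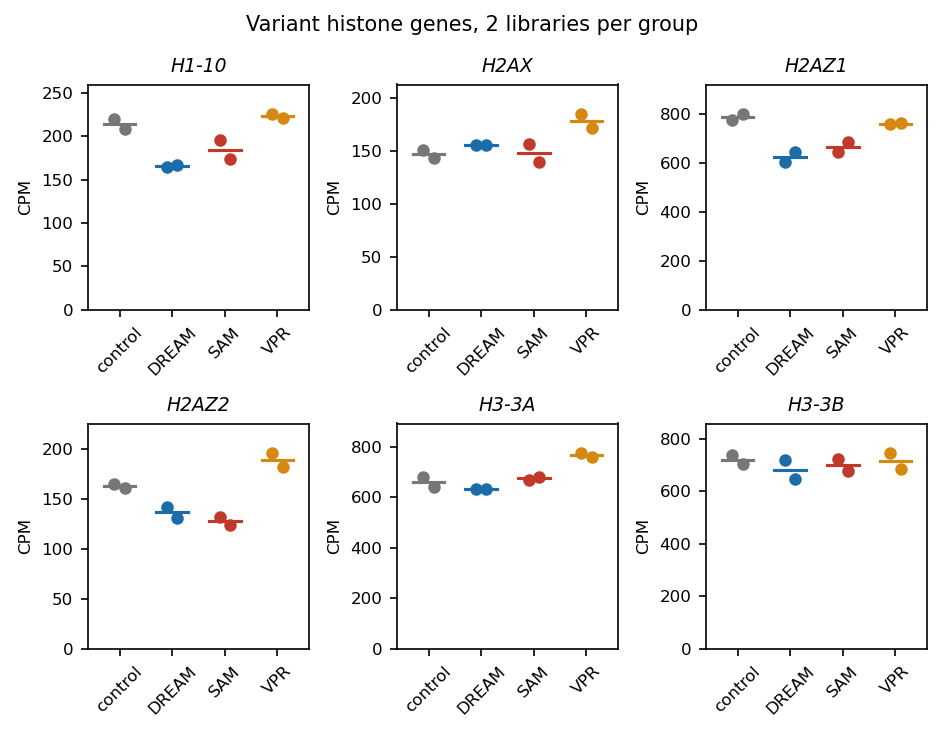
CPM of 6 variant histone genes in the 2 libraries of each group (y axis from 0, own scale per panel; lines are group means). *H1-10*, *H2AZ1* and *H2AZ2* are below the control in all CRISPR-DREAM and SAM libraries, while *H3-3B* overlaps the control in every group.

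*H2AX* encodes the variant that is phosphorylated around DNA breaks, and it was at 151 and 143 CPM in control libraries, 155 and 155 in CRISPR-DREAM, 156 and 139 in SAM and 185 and 171 in dCas9-VPR libraries. The dCas9-VPR libraries were the highest, with a log2 fold change of 0.27 (SE 0.07, adjusted p of limma = 0.0196), and the other groups did not pass the test. *H3-3A* and *H3-3B* encode the same H3.3 protein, which replaces H3 outside replication. *H3-3A* was at 680.0 and 639.6 CPM in control libraries, 633 and 633 in CRISPR-DREAM, 671 and 679.5 in SAM and 776 and 759 in dCas9-VPR libraries. Its log2 fold change with dCas9-VPR was 0.22 (SE 0.05, adjusted p of limma = 0.0116). Of the 75-base stretches of its canonical transcript, 67.7% also occur in other genes or pseudogenes, so its value is uncertain. *H3-3B*, at 737 and 703 CPM in control libraries, 717 and 647 in CRISPR-DREAM, 722 and 676 in SAM and 746 and 684 in dCas9-VPR libraries, did not pass the test in any comparison. The *H2AX* and *H3-3A* calls with dCas9-VPR were lost in 3 of the 4 fits that left out 1 library, with log2 fold changes of 0.22 to 0.33 and 0.17 to 0.26. Without control replicate 2 or without either dCas9-VPR library, 0 histone genes were below the FDR with dCas9-VPR, and without control replicate 1 there were 3.

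Among replication-dependent genes the SAM system had 6 of 19 higher and 0 lower at an FDR below 0.05, against 35.7% of all genes higher and 8.89% lower. These were *H3C6*, *H4C8*, *H2AC6*, *H2BC15*, *H3C10* and *H2AC13*, the last of which was outside the naming rule and is named after its values were seen. *H4C8* reached 1 CPM only in CRISPR-DREAM and SAM libraries and *H2AC13* only in SAM replicate 1 and dCas9-VPR replicate 1, so both entered the count through libraries where they are high. The same 6 were higher with median-of-ratios scaling, under which *H2AC11*, *H2AC18* and *H2BC11* were lower, and the split over all 26 histone genes went from 6 higher and 4 lower to 6 higher and 10 lower. The median replication-dependent gene stood at 0.28, beside 0.16 over all genes. With CRISPR-DREAM 1 of 19 was higher and 1 lower (median 0.04, beside 0.06 over all genes), and with dCas9-VPR 0 were higher and 2 lower (median 0.06, beside 0.06).

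*H3C6* encodes a replication-dependent H3 and lies at chr6:26224199-26227473 (hg38, plus strand). It was at 4.43 and 4.86 CPM in control libraries, 7.56 and 8.67 in CRISPR-DREAM, 16.8 and 20.3 in SAM and 4.75 and 6.42 in dCas9-VPR libraries. The SAM libraries were the highest, the CRISPR-DREAM libraries lay above the control, and dCas9-VPR overlapped the control. The log2 fold change was 1.89 (SE 0.15, adjusted p of limma = 2.35e-05) with the SAM system and 0.74 (SE 0.15, adjusted p of limma = 0.00521) with CRISPR-DREAM. The difference between CRISPR-DREAM and the SAM system was itself past the threshold, at -1.14 (SE 0.15, adjusted p of limma = 0.00449). Without SAM replicate 2 that difference was -1.01 and did not pass (limma adjusted p = 0.0795). Gencode 44 gives *H3C6* a single-exon transcript (chr6:26225135-26225616) that ends after the stem-loop printed above, and a longer one of 2 exons (chr6:26224199-26224305 and chr6:26224902-26227473) that spans it and ends near an AATAAA poly(A) signal. The files give 1 value per gene, so these transcripts were not separated. None of the 75-base stretches of the single-exon transcript, of 482 bases, occur in another gene. Those of the longer transcript were not searched, so shared sequence there is not known.

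*H4C8* encodes H4 and lies at chr6:26277609-26285638 (minus strand). It was at 0.606 and 0.913 CPM in control libraries, 1.36 and 1.33 in CRISPR-DREAM, 3.32 and 5.72 in SAM and 0.601 and 0.674 in dCas9-VPR libraries. The 2 SAM libraries were the highest and the furthest apart, the CRISPR-DREAM libraries were above the control, and dCas9-VPR overlapped it. The log2 fold change was 1.96 (SE 0.23, adjusted p of limma = 1.83e-04) with the SAM system, and 0.56 (SE 0.23, adjusted p of limma = 0.0966) with CRISPR-DREAM, which did not pass. CRISPR-DREAM was below the SAM system, at a log2 difference of -1.40 (SE 0.23, adjusted p of limma = 0.00937), a call lost without SAM replicate 2 (-1.05, limma adjusted p = 0.108). The gene has 3 Gencode 44 transcripts, 2 of them spliced past the stem-loop, and its exons overlap those of a gene on the opposite strand.

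Of the other genes that rose with the SAM system, *H2AC6*, an H2A gene known to make poly(A) transcripts, was at 5.46 and 6.81 CPM in control libraries, 5.73 and 7.90 in CRISPR-DREAM, 10.4 and 13.4 in SAM and 4.61 and 5.20 in dCas9-VPR libraries. Both SAM libraries were above all the others, and the log2 fold change was 0.89 (SE 0.18, adjusted p of limma = 0.00265). Its exons overlap those of another gene on the same strand. *H2BC15* (H2B) was at 3.02 and 3.48 CPM in control libraries, 3.50 and 3.76 in CRISPR-DREAM, 5.98 and 6.48 in SAM and 3.14 and 3.46 in dCas9-VPR libraries, and the SAM libraries again stood apart, with a log2 fold change of 0.85 (SE 0.13, adjusted p of limma = 7.68e-04). *H3C10* (H3) was at 1.63 and 1.63 CPM in control libraries, 2.06 and 1.97 in CRISPR-DREAM, 2.97 and 3.36 in SAM and 2.15 and 2.695 in dCas9-VPR libraries, with a log2 fold change of 0.78 (SE 0.16, adjusted p of limma = 0.00274). Its CRISPR-DREAM and dCas9-VPR libraries were above the control too, but neither comparison passed (0.24 and 0.45 on the log2 scale, limma adjusted p = 0.280 and 0.0704). *H2AC13* (H2A) was at 0.447 and 0.359 CPM in control libraries, 0.664 and 0.773 in CRISPR-DREAM, 1.20 and 0.995 in SAM and 1.03 and 0.738 in dCas9-VPR libraries. All activator libraries were above both controls. Its log2 fold change with the SAM system was 0.82 (SE 0.20, adjusted p of limma = 0.00701), and 61.3% of its 75-base stretches are shared with *H2AC14*. Its call was lost without SAM replicate 1 (0.73, limma adjusted p = 0.0553). *H2AC6* and *H2BC15* were lower with CRISPR-DREAM than with the SAM system, at log2 differences of -0.76 (SE 0.18, adjusted p of limma = 0.0251) and -0.70 (SE 0.13, adjusted p of limma = 0.0135). The *H2AC6* difference did not pass with median-of-ratios scaling (-0.66, limma adjusted p = 0.0538), without CRISPR-DREAM replicate 1 (-0.55) or without SAM replicate 2 (-0.58), and that of *H2BC15* without either SAM library (-0.76 and -0.65).

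**Figure D4:**
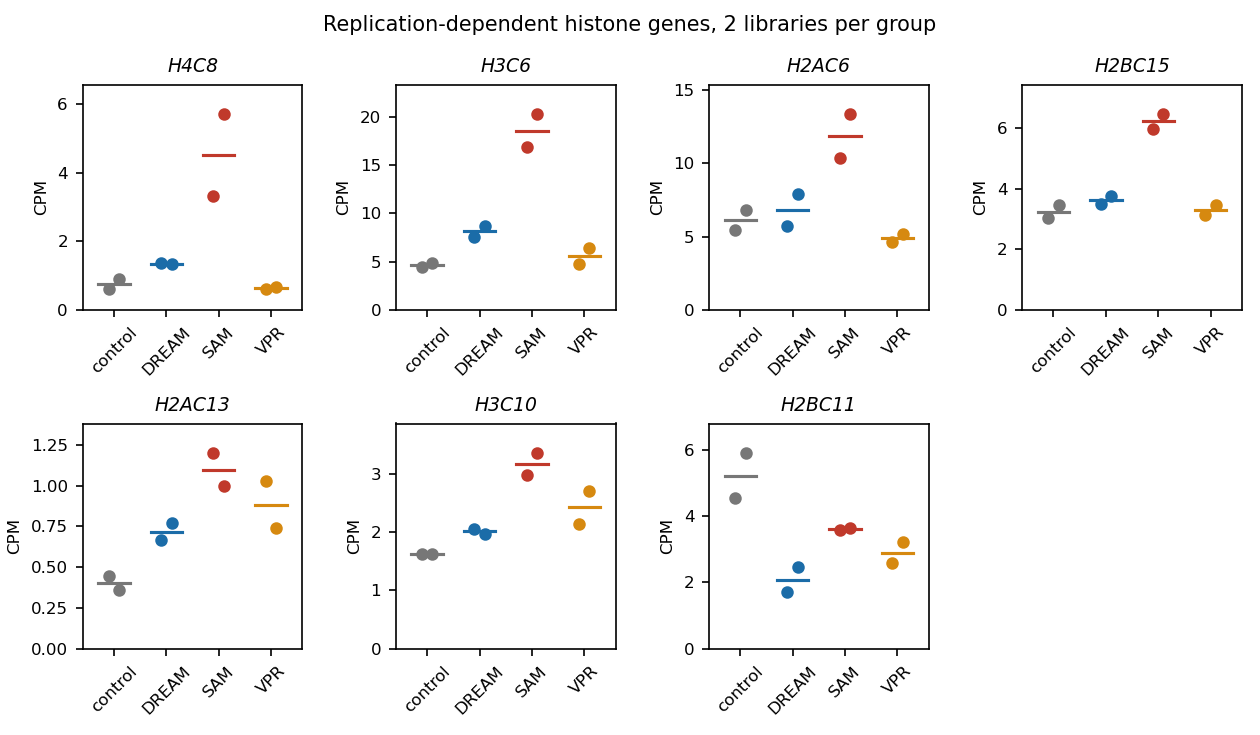
CPM of the 7 replication-dependent histone genes below an FDR of 0.05 with the SAM system or CRISPR-DREAM, in the 2 libraries of each group (y axis from 0, own scale per panel; lines are group means). The SAM libraries of *H3C6*, *H4C8*, *H2AC6*, *H2BC15* and *H3C10* are above all other libraries, those of *H2AC13* overlap dCas9-VPR, and the CRISPR-DREAM libraries of *H2BC11* are the lowest.

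*H2BC11* (H2B, chr6:27125897-27132795, minus strand) moved the other way. It was at 4.53 and 5.90 CPM in control libraries, 1.71 and 2.46 in CRISPR-DREAM, 3.57 and 3.64 in SAM and 2.58 and 3.21 in dCas9-VPR libraries. All activator libraries were below both controls, and the CRISPR-DREAM libraries were the lowest. The log2 fold change was -1.15 (SE 0.18, adjusted p of limma = 0.00137) with CRISPR-DREAM, -0.75 (SE 0.18, adjusted p of limma = 0.0209) with dCas9-VPR and -0.47 (SE 0.18, adjusted p of limma = 0.0608) with the SAM system, of which the last did not pass. The fold change with CRISPR-DREAM was no longer above 2 without control replicate 2 (-0.98) or without CRISPR-DREAM replicate 1 (-0.94), although the FDR stayed below 0.05. The call with dCas9-VPR was lost without control replicate 2 (-0.57) and without either dCas9-VPR library (-0.61 and -0.88). *H4C14* was also lower with dCas9-VPR, at 13.7 and 15.2 CPM in control libraries, 10.1 and 12.8 in CRISPR-DREAM, 14.9 and 14.5 in SAM and 11.7 and 9.81 in dCas9-VPR libraries. The log2 fold change was -0.42 (SE 0.13, adjusted p of limma = 0.0481), a call lost when any 1 of the 4 libraries was left out (-0.54 to -0.30), and it is a near-identical copy of *H4C15*.

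The windows of 4 H2A and H2B pairs lie head to head on 235 to 247 shared bases, and the partners of a pair did not always move alike. *H2AC11*, which shares 247 of the 250 bases printed for *H2BC11*, was at 2.23 and 2.52 CPM in control libraries, 1.87 and 2.18 in CRISPR-DREAM, 1.49 and 1.91 in SAM and 2.26 and 2.76 in dCas9-VPR libraries. Its log2 fold change with CRISPR-DREAM was -0.19 (SE 0.17, adjusted p of limma = 0.437), which did not pass. *H2BC4*, the partner of *H2AC6*, was under the filter, at 0.383 and 0.294 CPM in control libraries, 0.791 and 0.562 in CRISPR-DREAM, 0.743 and 1.25 in SAM and 0.458 and 0.449 in dCas9-VPR libraries. All its activator libraries were above both controls. For *H2AC6* both SAM libraries were above both controls and both dCas9-VPR libraries were below them. *H2BC21* was at 1.93 and 1.76 CPM in control libraries, 1.80 and 2.03 in CRISPR-DREAM, 2.44 and 2.27 in SAM and 2.66 and 2.68 in dCas9-VPR libraries, with log2 fold changes of 0.04, 0.28 and 0.44 that did not pass (limma adjusted p = 0.865, 0.139 and 0.0652), and its partner *H2AC20* was below 0.63 CPM throughout. In the last pair, under the filter and named after its values were seen, *H2BC17* was at 0.830 and 0.980 CPM in control libraries, 0.475 and 0.5975 in CRISPR-DREAM, 0.201 and 0.455 in SAM and 0.258 and 0.321 in dCas9-VPR libraries. *H2AC17* was at 0.287 and 0.416 CPM in control and 0.601 and 0.609 in CRISPR-DREAM libraries, and its SAM and dCas9-VPR libraries overlapped the control. A difference between partners was not tested.

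Of the other highly expressed replication-dependent genes, *H2BC12* (H2B) was at 29.4 and 37.3 CPM in control libraries, 37.1 and 45.99 in CRISPR-DREAM, 37.1 and 47.5 in SAM and 28.9 and 36.8 in dCas9-VPR libraries, where the control overlapped each activator group, replicate 2 was above replicate 1 in every group, and both dCas9-VPR libraries were below all CRISPR-DREAM and SAM libraries. Its log2 fold changes were 0.32 with CRISPR-DREAM, 0.34 for SAM and -0.02 for dCas9-VPR (standard error 0.16, limma adjusted p = 0.183, 0.122 and 0.942). *H1-2*, a linker histone, was at 11.6 and 14.8 CPM in control libraries, 7.88 and 12.1 in CRISPR-DREAM, 11.95 and 15.3 in SAM and 14.5 and 18.7 in dCas9-VPR libraries. It did not pass relative to the control, and was lower with CRISPR-DREAM than with dCas9-VPR, at a log2 difference of -0.73 (SE 0.21, adjusted p of limma = 0.0491), a call lost with a pseudocount of 0.1 (limma adjusted p = 0.0507), without CRISPR-DREAM replicate 1 (-0.43) and without either dCas9-VPR library (-0.90 and -0.55). *H2BC5* was at 2.27 and 3.20 CPM in control libraries, 3.42 and 3.44 in CRISPR-DREAM, 2.34 and 3.70 in SAM and 2.55 and 3.40 in dCas9-VPR libraries, and did not pass in any comparison. *H1-4* was between 0.284 and 0.492 CPM and *H1-5* between 0.0320 and 0.483 CPM.

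Near-identical copies limit 3 pairs on chromosome 1, whose reads the quantification could split between copies. *H2AC18* and *H2AC19* differed in opposite ways between the 2 CRISPR-DREAM libraries. *H2AC18* was at 4.34 and 6.91 CPM in control libraries and 4.22 and 2.23 CPM in CRISPR-DREAM libraries. *H2AC19* was at 9.58 and 8.83 CPM in control libraries and 2.38 and 7.48 CPM in CRISPR-DREAM libraries. Added together as a description chosen after the data were seen, they were at 13.9 and 15.7 CPM in control libraries, 6.60 and 9.71 in CRISPR-DREAM, 8.76 and 9.69 in SAM and 9.60 and 10.6 in dCas9-VPR libraries, so that every activator library was below both controls. *H3C14* and *H3C15* had equal values in 7 of 8 libraries, and together were at 1.47 and 1.22 CPM in control libraries, 1.93 and 1.89 in CRISPR-DREAM, 2.46 and 1.96 in SAM and 2.36 and 1.47 in dCas9-VPR libraries. *H4C14* and *H4C15* together were at 19.1 and 23.2 CPM in control libraries, 15.3 and 18.4 in CRISPR-DREAM, 21.2 and 24.9 in SAM and 17.4 and 18.6 in dCas9-VPR libraries. Most of the 75-base stretches of the canonical transcript were shared with another gene in 12 of the 43 histone genes, and 20 had none shared. Other transcripts of these genes were not searched.

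The 17 replication-dependent genes under the filter ranged from no reads, which the files list as 0.0001 CPM, to 1.41 CPM in a library. With the SAM system 8 of 17 had both libraries above both controls and 3 of 17 below, against 42.2% and 13.4% of 4648 genes under the filter. With CRISPR-DREAM these counts were 5 and 3 (28.0% and 17.6% of such genes), and with dCas9-VPR 5 and 5 (20.8% and 21.3%). Relative to the SAM system 4 were above and 7 below with CRISPR-DREAM, against 12.6% and 34.4%, and relative to dCas9-VPR 6 were above and 2 below, against 26.8% and 13.5%. *H2BC9* (H2B, named after its values were seen) was at 0.319 and 0.294 CPM in control libraries, 0.253 and 0.211 in CRISPR-DREAM, 0.858 and 0.910 in SAM and 0.401 and 0.385 in dCas9-VPR libraries. Its SAM libraries stood above all the others.

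Gene models differed in length. In the authors' files 20 replication-dependent genes span 1196 bp or more and 16 span 797 bp or less, a split made after the spans were seen. In Gencode 44, 12 of the 36 have a transcript that ends past the stem-loop, 11 of them with AATAAA near an end. Such a transcript need not contain the stem-loop. The one of *H2BC11* with AATAAA splices it out, and that of *H2BC18* starts after it. Among genes with the longer span 13 were tested, of which 5 rose with the SAM system (median 0.45). Among the shorter 6 were tested, of which 1 rose (median -0.01), against 35.7% of all genes higher and a median of 0.16 over all genes. With CRISPR-DREAM the medians were 0.13 and -0.32. *H3C6*, *H4C8*, *H2AC6*, *H2BC15* and *H3C10* all have the longer span. So do *H2AC11*, *H3C14* and *H3C15*, which have no Gencode 44 transcript past the stem-loop. The difference between the classes was not tested.

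As other RNAs without a poly(A) tail, 10 genes were summed. They stood at 63.1 and 84.8 CPM in control libraries, 132 and 130.2 in CRISPR-DREAM, 156 and 69.6 in SAM and 137 and 67.3 in dCas9-VPR libraries. SAM replicate 1 and dCas9-VPR replicate 1 were at over 130 CPM and the second libraries of those groups near the control, whereas replication-dependent histone genes were higher in replicate 2. Of the 8 genes of this list that were tested, the limma fit called 0 in each of the 3 comparisons with the control, and 0 had an unadjusted p below 0.05. Their part in the histone values was not tested.

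Replication-dependent histone mRNA is known to peak in S phase, so 20 S-phase genes were examined. Their sum was 4893 and 4849 CPM in control libraries, 3931 and 3810.0 in CRISPR-DREAM, 3792 and 3680.0 in SAM and 4556 and 4527 in dCas9-VPR libraries, lower in all activator libraries than in either control. With CRISPR-DREAM 16 of 20 fell and 1 rose, against 9.25% and 18.8% of all genes, and with the SAM system 17 fell and 1 rose, against 8.89% and 35.7%. With dCas9-VPR 6 fell and 1 rose, against 6.68% and 11.0%. *TK1*, thymidine kinase, was at 242 and 257 CPM in control libraries, 161 and 165 in CRISPR-DREAM, 146 and 148 in SAM and 192 and 197 in dCas9-VPR libraries, and its log2 fold change was -0.62 (SE 0.05, adjusted p of limma = 2.45e-05) with CRISPR-DREAM and -0.76 (SE 0.05, adjusted p of limma = 7.89e-06) with the SAM system. *PCNA*, the sliding clamp of DNA polymerase, fell by 0.46 and 0.47 on the log2 scale (limma adjusted p = 7.45e-05 and 5.96e-05), and *MCM5*, a subunit of the replicative helicase, by 0.49 and 0.48 (limma adjusted p = 8.57e-05 and 7.49e-05). *CCNE1*, cyclin E1, was the gene that rose, by 0.31 and 0.29 (limma adjusted p = 0.0216 and 0.0189), calls that were lost with median-of-ratios scaling. The replication-dependent histone sum stood at log2 ratios of -0.02 and 0.38 in these groups, and how the S-phase genes bear on it was not tested.

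Factors that make and process histone mRNA were examined as a further list. *NPAT*, the coactivator of replication-dependent histone genes, was at 18.2 and 18.1 CPM in control libraries, 17.8 and 14.1 in CRISPR-DREAM, 17.6 and 17.2 in SAM and 18.3 and 17.8 in dCas9-VPR libraries, and *SLBP* at 114 and 113 CPM in control libraries, 110.2 and 112 in CRISPR-DREAM, 108 and 110.2 in SAM and 113 and 103 in dCas9-VPR libraries, and neither passed in a comparison with the control. Of 16 genes of histone transcription and 3′ processing, 3 rose and 0 fell with CRISPR-DREAM, 4 rose and 0 fell with the SAM system, and 1 rose and 1 fell with dCas9-VPR, against 18.8%, 35.7% and 11.0% of all genes higher. With the SAM system these were *SYMPK* and *CSTF2*, of the cleavage machinery, *ERI1*, an exonuclease that trims the stem-loop, and *LSM10*, of the U7 particle, with log2 fold changes of 0.43, 0.33, 0.35 and 0.46 (limma adjusted p = 8.61e-04, 0.00280, 0.00603 and 0.00878). Median-of-ratios scaling turns the split with the SAM system to 1 higher and 6 lower and that with CRISPR-DREAM to 1 and 1, so no direction is given for this list. *ZNF473*, of the U7-dependent processing complex, fell by 0.72 with dCas9-VPR (limma adjusted p = 0.00139).

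Of 22 histone chaperones and exchange factors, 4 fell and 1 rose with CRISPR-DREAM, 4 fell and 1 rose for SAM, and 1 fell and 1 rose with dCas9-VPR, against 9.25%, 8.89% and 6.68% of all genes lower. *HJURP*, the chaperone of the centromeric H3 variant CENP-A, was at 43.8 and 44.6 CPM in control libraries, 28.7 and 27.7 in CRISPR-DREAM, 28.4 and 27.2 in SAM and 41.1 and 38.1 in dCas9-VPR libraries, with log2 fold changes of -0.64 (SE 0.07, adjusted p of limma = 1.71e-04) with CRISPR-DREAM and -0.66 (SE 0.07, adjusted p of limma = 1.13e-04) with the SAM system. *ASF1B*, an H3-H4 chaperone, fell by 0.19 and 0.26 (limma adjusted p = 0.0206 and 0.00247). Of 8 histone genes outside the name pattern 5 were tested. *CENPA* itself was at 26.5 and 28.6 CPM in control libraries, 20.2 and 18.5 in CRISPR-DREAM, 19.2 and 19.6 in SAM and 28.4 and 28.3 in dCas9-VPR libraries, and fell by 0.50 with CRISPR-DREAM and by 0.50 with the SAM system (limma adjusted p = 0.00146 and 9.13e-04). *MACROH2A2*, a macroH2A variant, rose by 0.34 with the SAM system (limma adjusted p = 0.00555), and *H2AW* fell by 0.65 with CRISPR-DREAM (limma adjusted p = 0.0459). With median-of-ratios scaling 1 chaperone was higher and 10 lower for SAM and 0 higher and 9 lower with CRISPR-DREAM, against 21.2% and 14.4% of all genes lower, and the SAM counts were 0 higher and 1 lower among the outside histones.

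Between activators, 6 of 26 histone genes were lower with CRISPR-DREAM than with the SAM system and 0 higher, against 9.14% and 1.59% of all genes. At the study's threshold these were *H3C6* and *H4C8*, both lower, against 0.721% of all genes (0.119% higher and 0.602% lower). Without SAM replicate 2 both counts were 0, without SAM replicate 1 there were 3 below the FDR, and without CRISPR-DREAM replicate 2 there were 4 past the threshold (*H2AC19* and *H3C15* added). Compared with dCas9-VPR, 6 of 26 were lower with CRISPR-DREAM and 0 higher, against 5.21% and 7.90% of all genes. They included *H1-10*, *H2AZ1*, *H2AZ2*, *H3-3A* and *H1-2*. Of the 26, 0 were past a fold change of 2 in the limma fit, against 0.734% of all genes (0.721% higher and 0.0132% lower). An unadjusted p below 0.05 was found for 11 of 26, and the share of all genes below it was not counted. Without CRISPR-DREAM replicate 2 there were 3 past the threshold (*H1-2*, *H2AC19* and *H3C15*, all lower), and without either dCas9-VPR library 3 below the FDR. *H2AZ2* stood at a log2 difference of -0.47 (SE 0.06, adjusted p of limma = 0.00165) and *H1-10* at -0.43 (SE 0.06, adjusted p of limma = 0.00233), with no overlap between the libraries of the 2 groups.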

How the data were processed

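RNA-seq was performed by the authors in HEK293T cells, 2 libraries in each of 4 groups, grouped from the titles of the samples. The authors aligned paired-end 75-base reads to hg38 (Gencode 36) with STAR 2.7.3a, estimated transcript levels with a Bayesian method, deposited 1 table of CPM per library, in which 0.0001 is added to each gene, and tested with DESeq2 (version 3.5 as stated). Counting by strand is not given in the sources used here. Depth was estimated from the commonest low value, and 61.8% to 66.2% of low values were whole reads within 0.02, so reads were not recovered and no count test was run.

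Log2(CPM + 0.5) was fitted with limma 3.58.1 (trend, robust) in R 4.3.3 over all 8 libraries, 1 coefficient per group, 4 residual degrees of freedom. The 15122 genes that reached 1 CPM in 2 or more libraries were tested, with Benjamini-Hochberg adjustment over all of them. Fold changes on this scale understate changes of low genes. The fit was tested on simulated data. Sums are descriptions without a test. An exact permutation test of 2 against 2 libraries cannot go below p = 0.333.

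The histone genes and all lists were chosen with earlier results of these data known. Named genes are the variants, the 3 highest replication-dependent genes per family, genes past the threshold, the 5 smallest p-values per comparison and 6 genes known to make poly(A) transcripts, and in the other lists *NPAT*, *SLBP* and up to 4 called genes. Alternatives were pseudocounts of 0.1 and 1, median-of-ratios scaling, no filter, only the 4 libraries compared, a replicate block and leaving out each library. Gencode 44 and RefSeq sequences were read with Python 3.11.15, pandas 2.3.3 and pysam 0.24.0. Gene starts matched Gencode 44 for 26 of 43 genes, so transcript models may differ from those the authors used. RefSeq promoters were matched by symbol, 41 of 43 genes. The values of 1 variant gene are not reported here.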

Additional observations from a re-analysis of the deposited data

Results flagged for a closer look

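Outside the protein-coding rows, 3 rows that the name pattern matched had both libraries of an activator group above both controls. With the SAM system 42.2% of all genes under the filter did so, and 13.4% had both libraries below. *H1-10-AS1*, antisense to *H1-10*, was at 0.294 and 0.601 CPM in control libraries against 0.625 and 0.655 CPM in SAM libraries. *H2AZ1-DT*, a divergent transcript of *H2AZ1*, was at 0.223 and 0.0979 CPM in control libraries against 0.315 and 0.796 CPM in SAM libraries. *H2BC20P*, an H2B pseudogene, was at 2.13 and 1.99 CPM in control libraries, 2.96 and 2.702 CPM in SAM libraries and 3.33 and 3.59 CPM in dCas9-VPR libraries. It passed the filter, and the share for genes past the filter was not counted. Other matched rows lay below both controls with the SAM system. *H2AZ2P1* was at 0.777 and 0.908 CPM in control and 0.366 and 0.504 in SAM libraries. *H2AZP3* was at 0.415 and 0.424 against 0.172 and 0.0574, and *H3C9P* at 0.223 and 0.196 against 0.0859 and 0.142. No group has the 4 or more libraries that a check for outlying samples needs.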

How the results depend on the processing

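The 33 called gene results were refitted 330 times in all, and 0 changed sign and 51 lost the FDR of 0.05, 42 of them when 1 library was left out. *H3C6* and *H4C8* with the SAM system stayed past the threshold in every setting run. With median-of-ratios scaling 16 histone genes were below the FDR with the SAM system (39.2% of all genes), and the variant sum ratio was -0.28 with CRISPR-DREAM, -0.30 with the SAM system, 0.0233 with dCas9-VPR and 0.0184 between CRISPR-DREAM and the SAM system. Without the filter on low values 17 were called with the SAM system and 10 between CRISPR-DREAM and the SAM system, of 43 histone genes, beside 7480 and 1683 of 19770 genes. Replicate numbers are shared between groups, and differences between replicates correlated at 0.13 to 0.33 over 15122 genes, but the labels do not say what a number marks and each comparison has 2 pairs, so the numbers were not taken as a pairing. With a replicate block 11 histone genes were called with CRISPR-DREAM and 10 with dCas9-VPR, beside 6756 and 5674 of 15122 genes. The block called 12 between CRISPR-DREAM and the SAM system and 13 between CRISPR-DREAM and dCas9-VPR, beside 4617 and 4487 genes. It ended none of the 33 gene calls.

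Leaving out 1 library, the count past a fold change of 2 was 0 to 4 with CRISPR-DREAM, 0 to 4 between CRISPR-DREAM and the SAM system and 0 to 3 between CRISPR-DREAM and dCas9-VPR. The count below the FDR was 5 to 11 with CRISPR-DREAM, 0 to 3 with dCas9-VPR, 0 to 8 for CRISPR-DREAM against the SAM system and 3 to 8 between CRISPR-DREAM and dCas9-VPR. The cause of these changes was not tested. Of 36 replication-dependent genes 17 were under the filter on low values, and the p-values of the others rest on 2 libraries per group and 4 residual degrees of freedom.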
